A study of Mus musculus with 14 samples.

Results

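Peg10 and 9 other imprinted genes (Sgce, Peg3, Plagl1, Grb10, Igf2r, Impact, Igf2, Dlk1 and Meg3) were followed across 14 RNA libraries of mouse leukemic stem cells. They were taken by symbol from the 24463 genes measured, and all 10 were present. Peg10 was chosen by its FPKM in these same libraries, where it was known to differ between groups, so it is described without a test. The others were listed as imprinted genes or, for Sgce, as its neighbour. All cells came from lineage-negative mouse bone marrow that was transduced 2 times, 24 h apart, with a retrovirus carrying p210 BCR-ABL, the fusion kinase of chronic myeloid leukemia. They were kept for 48 h in IMDM with 15% serum and cytokines that included 50 ng/ml SCF, then sorted as Lin-, c-Kit+, Sca1+ and GFP+, where GFP marks transduced cells. Untreated cells were wild type (WT, n = 3) or lacked the transcription factors Tcf1 and Lef1 (dKO, n = 3). A further set of control cells was exposed over 6 h to the solvent alone (DMSO, n = 3), to prostaglandin E1 at 20 µM (PGE1, n = 3) or to prostaglandin E2 at 20 µM (PGE2, n = 2). The model is a freshly transduced population carrying the kinase in every group, not a leukemia that developed in an animal. The labels do not say whether replicates were separate animals or cultures, so the p-values below measure the spread between these libraries, which may be technical.

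Imprinted genes are transcribed mainly from the copy inherited from the mother or mainly from the copy inherited from the father, according to methylation set in the germ line. Many act on fetal growth, the placenta or metabolism, and several are known to be higher in blood stem cells than in their mature progeny. Prostaglandins E1 and E2 differ by a double bond in the acid side chain that only E2 has. They act on receptors that include EP2 and EP4, which raise cyclic AMP, and the factor CREB then binds a sequence called the cyclic AMP response element. The values were FPKM, fragments scaled to gene length and library depth. FPKM does not separate the parental copies, so imprinting itself was not measured.

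Depth ranged from 31.27 to 33.81 M reads in the WT and dKO libraries, and from 19.04 to 22.71 M in the other 8 libraries. DMSO replicate 1, PGE1 replicate 2 and dKO replicate 1 stood apart from their groups. Among well-covered genes, the variance between DMSO replicates 2 and 3 was 1.86 times counting noise, against 15.04 and 17.36 for pairs with replicate 1. The pair without PGE1 replicate 2 gave 12.34, against 45.57 and 47.88 for pairs with it, and the pair without dKO replicate 1 gave 5.33, against 15.79 and 14.8. For DMSO replicate 1 and dKO replicate 1 the genotype given among the characteristics contradicts the sample title, and titles were followed. Tcf7, which encodes Tcf1, lay between 0.022 and 0.142 FPKM in the 3 dKO libraries and between 1.15 and 1.48 in WT. Lef1 was low in all cells and still present in dKO, at 0.105 to 0.184 FPKM against 0.223 to 0.319 in WT. Whether these reads lie in the deleted part of either gene is not known. The Y-linked genes Ddx3y and Eif2s3y were listed at 0 in every dKO library and averaged 8.45 and 16.1 FPKM in WT, so genotype and the sex of the marrow cannot be told apart. The X-linked Xist averaged 10.1 FPKM in WT, 21.9 in dKO, 10.5 in DMSO, 5.95 in PGE1 and 14.8 in PGE2. In DMSO, PGE1 and PGE2, Eif2s3y averaged 16.5, 22.2 and 13.7 FPKM, and Ddx3y 7.35, 9.06 and 7.53. Whether the mix of sexes differed between these groups was not tested. Of the genes behind the sort, Kit averaged 23.0 to 42.2 FPKM over the 5 groups, with 28.0 in WT and 23.0 in dKO and with 26.1 in DMSO and 42.2 in PGE1. Ly6a, which encodes Sca1, averaged 11.3 FPKM in WT and 3.12 in dKO (adjusted p = 1.24e-05, limma), and 14.9, 12.96 and 12.7 in DMSO, PGE1 and PGE2. Of 9 stromal markers, 8 were below 1 FPKM in every library.

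The members' promoter windows came from RefSeq (build GRCm38.p6), which held 12 windows for 7 members: Peg3, Plagl1, Grb10, Igf2r, Igf2, Dlk1 and Meg3. Each spans 250 bases before to 50 bases after an annotated start, and positions count back from that start. Both strands were searched for the cyclic AMP response element TGACGTCA, its half-site TGACG (held 2 times by each full element) and the Tcf/Lef core CTTTGA. Peg3 and Meg3 held TGACGTCA, at position -178 and -57, as did 1.79% of all 32851 windows. Igf2r held 3 half-sites and no full element, the first Grb10 window held no half-site, and the second Grb10 window held 1. CTTTGA occurred in Meg3 (position -52, overlapping the full element) and in 1 of the 4 Igf2 windows, and in 16.0% of all windows. The 250 bases before the start are shown for the 2 members with the full element, whose RNA was near 0, and for Grb10, whose RNA differed in 4 comparisons; capitals mark both motifs, with CTTTGA read on either strand.
Peg3, chr7:6730420-6730669, minus strand: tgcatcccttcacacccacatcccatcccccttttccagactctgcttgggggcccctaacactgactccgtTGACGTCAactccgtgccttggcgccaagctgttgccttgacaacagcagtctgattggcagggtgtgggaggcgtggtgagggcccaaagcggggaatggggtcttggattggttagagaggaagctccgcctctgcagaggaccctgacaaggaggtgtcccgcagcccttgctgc
Meg3, chr12:109540746-109540995, plus strand: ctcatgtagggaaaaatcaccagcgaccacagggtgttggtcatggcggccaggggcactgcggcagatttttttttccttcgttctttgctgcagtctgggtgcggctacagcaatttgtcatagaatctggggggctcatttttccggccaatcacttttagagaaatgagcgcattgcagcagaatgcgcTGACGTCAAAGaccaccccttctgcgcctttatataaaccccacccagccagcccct
Grb10, chr11:12037421-12037670, minus strand: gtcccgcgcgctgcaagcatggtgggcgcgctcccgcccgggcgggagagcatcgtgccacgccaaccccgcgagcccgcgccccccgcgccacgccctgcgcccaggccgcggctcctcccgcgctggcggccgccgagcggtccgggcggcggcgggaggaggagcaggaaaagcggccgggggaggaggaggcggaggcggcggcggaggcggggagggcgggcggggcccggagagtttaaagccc
The Grb10 window was the richest in C and G of the 12, with 80.0% of its bases and 45 CpG sites over the whole window, against 61.3% and 13 in Peg3 and 53.7% and 13 in Meg3. A match is a description of letters, and no binding was measured.

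Peg10, a paternally expressed gene derived from a retrotransposon and needed for the placenta, was the member with the widest range of levels. It had 45.3, 37.2 and 49.1 FPKM in the 3 PGE1 libraries, from 6649, 4845 and 6879 reads. The DMSO libraries had 1.19, 1.99 and 2.02 FPKM, and the PGE2 libraries had 4.96 and 3.73. WT libraries had 0.879, 0.814 and 0.624 FPKM, and dKO libraries 0.686, 0.435 and 0.490. From low to high the groups were ordered dKO, WT, DMSO, PGE2 and PGE1, and only the neighbours dKO and WT overlapped. Against DMSO the mean was 25.3-fold higher with PGE1 (43.9 ± 6.05 against 1.73 ± 0.470 FPKM, SD, n = 3 each), and 2.51-fold higher with PGE2 (4.35 ± 0.868, SD, n = 2). At the same dose and time, PGE1 stood 10.1-fold above PGE2. The DMSO mean was in turn 2.24-fold that of WT, and the dKO mean was 0.695 times that of WT. Ranked by FPKM among the 24463 genes, Peg10 stood between 912th and 1512th in PGE1 libraries and between 9985th and 10902nd in DMSO libraries. Without DMSO replicate 1 and PGE1 replicate 2, the difference between PGE1 and DMSO was 4.004 on the log2(FPKM + 1) scale, against 4.05 with them.

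Sgce encodes epsilon-sarcoglycan and starts head to head with Peg10, so the pair is often treated as 1 imprinted unit. It had 4.58, 4.56 and 4.91 FPKM with PGE1, against 2.76, 1.90 and 2.01 with DMSO and 1.84 and 1.52 with PGE2. The PGE1 libraries lay above all others, and the PGE2 libraries lay below the DMSO libraries. Sgce rose 2.11-fold with PGE1 against DMSO (log2 difference 0.83 ± 0.11, SE; adjusted p = 4.38e-04, limma). It was 2.79-fold higher with PGE1 than with PGE2 (adjusted p = 1.63e-04, limma). For PGE2 against DMSO the log2 difference was -0.26, with a 95% interval of -0.55 to 0.03 (adjusted p = 0.292, limma). WT libraries had 2.10, 1.53 and 1.49 FPKM and dKO libraries 2.43, 0.715 and 1.25. These groups overlapped, as did WT and DMSO, with adjusted p of 0.551 and 0.126 (limma). Without dKO replicate 1, the library whose genotype field went against its title, the difference between dKO and WT passed the threshold at -0.46 (adjusted p = 0.0361, limma).

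The ratio of Peg10 to Sgce FPKM shows that the pair did not change by equal amounts. It was 9.89, 8.16 and 10 in PGE1 libraries and 2.69 and 2.46 in PGE2 libraries. DMSO libraries had 0.431, 1.05 and 1.004, WT libraries 0.418 to 0.533 and dKO libraries 0.282 to 0.608. The groups with PGE1, PGE2 and DMSO did not overlap in this ratio. Because Peg10 was chosen by its FPKM in these same libraries, the ratio inherits that choice and is a description only.

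Of the 4 genes tested in the cluster around Peg10, Sgce included, 3 rose with PGE1 against DMSO, in a comparison that called 49.1% of all genes (23.6% higher). Casd1, which encodes a sialic acid acetyltransferase, rose from 7.13 ± 0.764 to 11.4 ± 0.639 FPKM with PGE1 against DMSO (SD, n = 3 each; log2 difference 0.61), and Pon2, a lactonase, rose from 17.8 to 21.6 FPKM. Pon3 had 4.81 and 5.61 FPKM and did not pass the test. Asb4, Calcr, Ppp1r9a and Tfpi2, the other members of the cluster listed, stayed below 1 FPKM in every library.

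**Figure D1:**
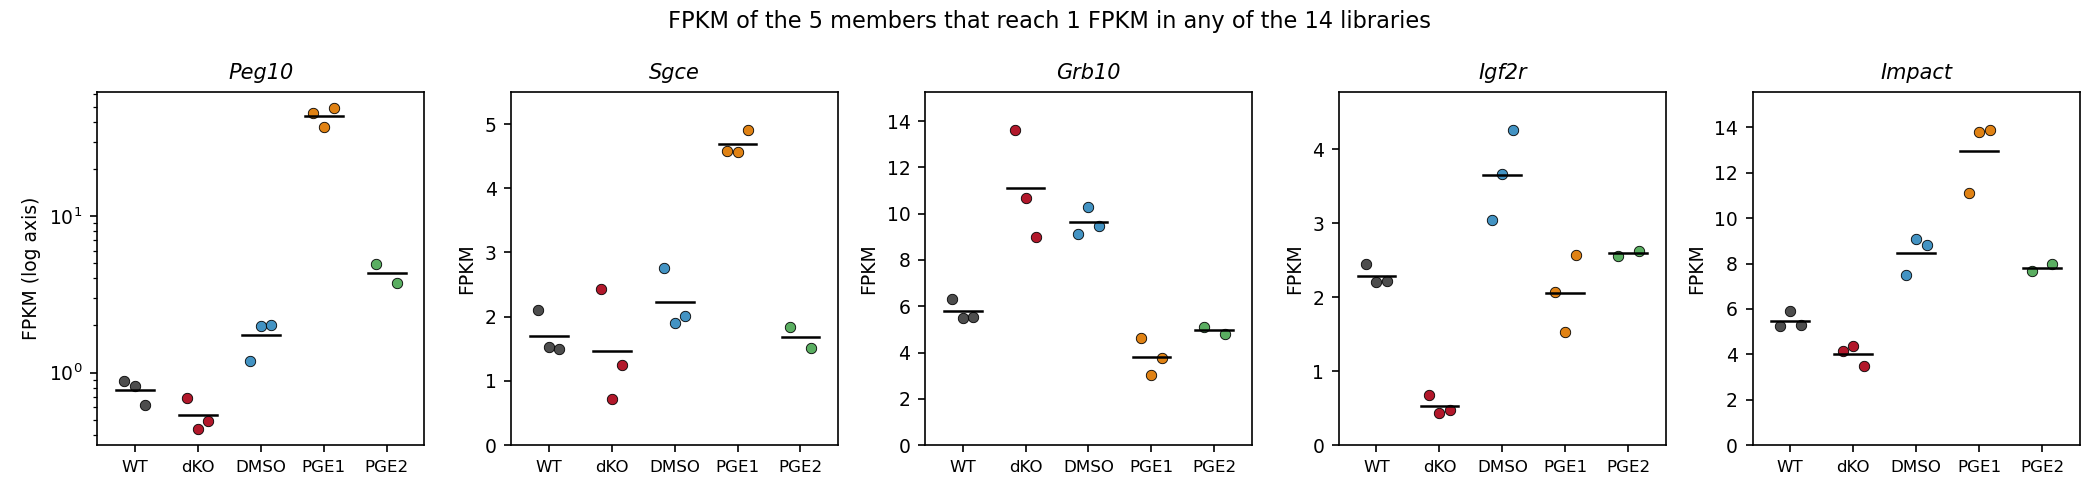
FPKM of Peg10 (log axis), Sgce, Grb10, Igf2r and Impact in each library, with 1 point per library and a line at the group mean. Peg10 sits between 37.2 and 49.1 with PGE1 and at or below 4.96 elsewhere, Sgce is highest with PGE1, Grb10 is highest in dKO and DMSO libraries, and Igf2r is lowest in dKO libraries.

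Grb10 encodes an adaptor that restrains signalling by the insulin and IGF1 receptors. It fell with both prostaglandins and was higher without Tcf1 and Lef1. It had 9.14, 10.3 and 9.47 FPKM with DMSO, 4.61, 3.03 and 3.77 with PGE1, and 5.10 and 4.81 with PGE2. Every prostaglandin library lay below every DMSO library. The mean was 2.53-fold lower with PGE1 (log2 difference -1.16 ± 0.12, SE; adjusted p = 8.2e-05, limma) and 1.94-fold lower with PGE2 (-0.83 ± 0.13, SE; adjusted p = 0.00818, limma). These comparisons share the DMSO libraries. The PGE2 call was lost when either PGE2 library was left out, with adjusted p of 0.0722 and 0.104 (limma). PGE1 and PGE2 differed by -0.32 on the log2 scale, with a 95% interval of -0.62 to -0.02 and an adjusted p of 0.0652 (limma). That difference passed the threshold without PGE1 replicate 1 (-0.44, adjusted p = 0.0109, limma).

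In untreated cells Grb10 had 6.31, 5.49 and 5.54 FPKM in WT and 13.6, 10.7 and 9.004 in dKO libraries, with no overlap. It was 1.92-fold higher in dKO (log2 difference 0.82 ± 0.13, SE; adjusted p = 0.00206, limma). It was also 1.67-fold higher in DMSO than in WT libraries (adjusted p = 1.30e-04, limma). Vehicle, added culture time and whatever else differed between these sets of libraries cannot be told apart in that last comparison, here and for the other genes. Ddc and Cobl, the neighbours of Grb10, stayed below 1 FPKM in every library and below the minimum level for the test. Ddc averaged 0.758 FPKM with DMSO, 0.145 with PGE1 and 0.0618 with PGE2, from 101, 18 and 5 reads in all, and did not overlap between DMSO and either prostaglandin. In limma with no minimum its adjusted p was 0.00517 for PGE1 and 0.0281 for PGE2. Cobl averaged 0.146, 0.112 and 0.0307 FPKM in the same groups, and its adjusted p was 0.229 and 0.0325. In untreated cells Ddc averaged 0.212 FPKM in WT and 0.0253 in dKO, the opposite direction to Grb10.

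Igf2r encodes the mannose 6-phosphate receptor, which carries lysosomal enzymes and removes IGF2 from the cell surface. It had 2.45, 2.20 and 2.22 FPKM in WT and 0.677, 0.431 and 0.471 in dKO libraries, all dKO values lying below all WT values. It was 4.35-fold lower in dKO (log2 difference -1.11 ± 0.09, SE; adjusted p = 7.8e-05, limma). Markers of several cell types were lower in dKO too, where 22.9% of all genes were called lower. Of monocyte and macrophage markers all 7 measured fell, and their summed level was 780 to 814 FPKM in WT and 113 to 128 in dKO libraries. Of the markers tested, 6 of 6 megakaryocyte, 4 of 4 stem cell, 6 of 8 neutrophil and 3 of 4 erythroid genes also fell. Megakaryocyte markers summed to 204 to 224 FPKM in WT and 52.5 to 101 in dKO, stem cell markers to 43.3 to 45.5 and 30.3 to 37.2, and erythroid markers to 14.6 to 15.5 and 6.35 to 7.87. Neutrophil markers summed to 1490 to 1507 and 1342 to 1930. No marker of these lists was at 0 in every library, and their part in the result was not tested. In these bulk samples, fewer cells of a type and less RNA per cell cannot be told apart.

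With treatment, Igf2r had 3.04, 3.66 and 4.26 FPKM in DMSO, 2.07, 1.53 and 2.57 in PGE1, and 2.56 and 2.63 in PGE2 libraries. The DMSO libraries lay above all others. It was 1.78-fold lower with PGE1 (log2 difference -0.61 ± 0.14, SE; adjusted p = 0.00706, limma). With PGE2 the log2 difference was -0.37 (95% interval -0.73 to -0.0014, adjusted p = 0.238, limma), and PGE1 and PGE2 libraries overlapped (-0.25, 95% interval -0.61 to 0.12, adjusted p = 0.222, limma). It was 1.60-fold higher in DMSO than in WT libraries (adjusted p = 0.00353, limma). Igf2r overlaps the antisense RNA Airn, and the strand handling is not given, so their reads cannot be separated with certainty. Airn itself had at most 0.238 FPKM. Slc22a3, an organic cation transporter in the same cluster, went the other way with PGE1, rising from 4.78 ± 0.546 to 10.7 ± 1.14 FPKM (SD, n = 3 each; log2 difference 1.02 ± 0.10, SE; adjusted p = 6.8e-05, limma).

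Impact encodes an inhibitor of the amino acid sensor kinase Gcn2. It rose with PGE1 and was not called with PGE2. It had 11.1, 13.8 and 13.9 FPKM with PGE1, 7.51, 9.07 and 8.81 with DMSO and 7.66 and 7.97 with PGE2. The PGE1 libraries lay above the rest, and those with PGE2 lay among the DMSO values. The PGE1 mean was 1.53-fold that of DMSO (log2 difference 0.56 ± 0.10, SE; adjusted p = 0.00199, limma) and 1.66-fold that of PGE2 (0.65, adjusted p = 0.00132, limma). For PGE2 against DMSO the difference was -0.10, with a 95% interval of -0.36 to 0.16 (adjusted p = 0.679, limma).

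In untreated cells Impact had 5.25, 5.92 and 5.30 FPKM in WT and 4.13, 4.39 and 3.49 in dKO libraries. It fell by 0.38 on the log2 scale in dKO (adjusted p = 0.00874, limma), a call that quantile normalization ended (-0.21, adjusted p = 0.0519, limma). It was 1.54-fold higher in DMSO than in WT libraries (adjusted p = 6.46e-04, limma).

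Across the 4 members that passed the minimum level beside Peg10, all differed between PGE1 and DMSO, with Sgce and Impact higher and Grb10 and Igf2r lower, while 49.1% of all 11242 genes tested were called (23.6% higher and 25.5% lower). The libraries of these groups did not overlap for any of the 4, nor for 57.2% of all genes. Only Grb10 was called for PGE2 against DMSO, where 5.57% of genes were (0.996% higher and 4.57% lower). The libraries of PGE2 and DMSO did not overlap for Sgce, Grb10 and Igf2r, nor for 49.1% of all genes. Sgce and Impact were called, both higher, for PGE1 against PGE2, where 53.9% of genes were (27.2% higher and 26.7% lower) and 69.9% did not overlap. Grb10, Igf2r and Impact were called, all higher, for DMSO against WT, where 56.6% of genes were (26.0% higher and 30.7% lower) and 64.3% did not overlap. For dKO against WT, which shares the WT libraries, Grb10 was higher and Igf2r and Impact lower, and 40.9% of genes were called (18.0% higher and 22.9% lower) with 54.9% not overlapping. Under quantile normalization 60.2% of the dKO calls were higher, against 44.1% here. Leaving out DMSO replicate 1 and PGE1 replicate 2 kept the 4 PGE1 calls, with log2 differences of 0.96, 0.43, -1.07 and -0.58 for Sgce, Impact, Grb10 and Igf2r. Leaving out DMSO replicate 1 alone ended none of the members' calls against DMSO or between DMSO and WT. Leaving out dKO replicate 1 kept the dKO calls of Grb10, Igf2r and Impact, at 0.67, -1.18 and -0.40. Since the members were listed with earlier results known, these values place each difference against the spread between libraries and are not independent evidence.

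**Figure D2:**
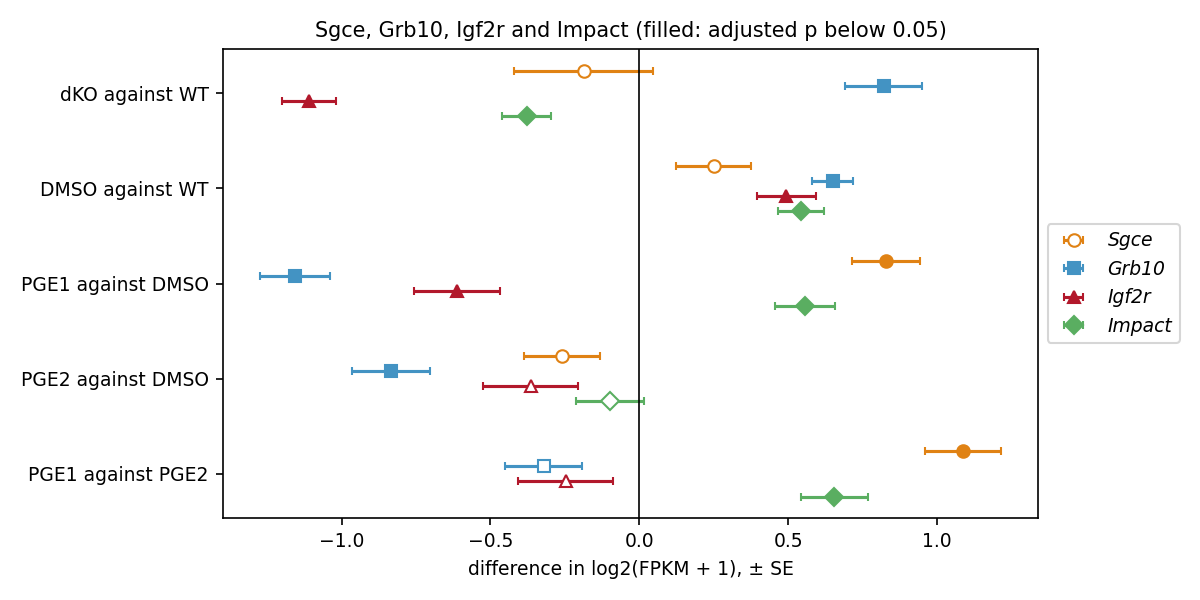
Differences in log2(FPKM + 1) for Sgce, Grb10, Igf2r and Impact in 5 comparisons, with standard errors from limma; filled symbols passed an adjusted p of 0.05. Sgce and Impact lie to the right and Grb10 and Igf2r to the left for PGE1 against DMSO, while only Grb10 is filled for PGE2 against DMSO.

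The other 5 members, Plagl1, Dlk1, Peg3, Igf2 and Meg3, were near 0: each was below 1 FPKM in every library. They were below the minimum level for limma, and exact permutation tests of 3 against 3 libraries cannot go below p = 0.1, or of 3 against 2 below p = 0.2. A count of 3 reads, the most that a count of 0 allows for counting error, corresponds to between 0.0077 and 0.0425 FPKM, depending on the gene and library. Plagl1, a zinc finger factor that regulates other imprinted genes, came closest to 1 FPKM. It had 0.328, 0.351 and 0.597 FPKM with PGE1 (38, 36 and 66 reads) and 0.141, 0.126 and 0.178 with DMSO (16, 15 and 20 reads). PGE2 libraries had 0.0699 and 0.0898, and WT libraries 0.0583, 0.0474 and 0.0516. The dKO libraries had 0.0486, 0.0562 and 0.0057. PGE1 libraries lay above all others, with a two-sided exact permutation p of 0.1 against DMSO. In a limma fit with no minimum level, the PGE1 difference from DMSO passed (adjusted p = 0.0131), as did that from PGE2 (adjusted p = 0.00666) and that of DMSO from WT (adjusted p = 0.00653).

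Dlk1, a membrane protein related to Notch ligands and known from fetal and immature tissues, was lowest with DMSO. DMSO libraries had 0.0396, 0.0471 and 0.0599 FPKM from 4 to 6 reads, and WT libraries 0.197, 0.113 and 0.116 from 17 to 30 reads. The groups did not overlap (exact permutation p = 0.1, and adjusted p = 0.0275 in limma with no minimum). PGE1 libraries had 0.155, 0.241 and 0.0407 FPKM, PGE2 libraries 0.0884 and 0.146, and dKO libraries 0.390, 0.101 and 0.194. PGE1 libraries overlapped those with DMSO, and dKO libraries overlapped WT.

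Igf2, a fetal growth factor, had 0 or 1 read in each WT and dKO library and 12, 5 and 9 reads with DMSO (0.1502, 0.0594 and 0.113 FPKM). PGE1 libraries had 7, 7 and 0 reads and PGE2 libraries 2 and 5. DMSO lay above WT without overlap (exact permutation p = 0.1, adjusted p = 0.0156 in limma with no minimum), at levels of 0.15 FPKM or less. H19, the maternal noncoding RNA beside Igf2, averaged 0.446 FPKM in WT and 1.58 in dKO and did not pass the test.

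Peg3, a zinc finger factor, had 14, 21 and 4 reads with PGE1 (0.0961, 0.162 and 0.0287 FPKM) and 3, 4 and 10 with DMSO, which overlap. PGE2 libraries had 2 and 3 reads, WT libraries 1, 5 and 1, and dKO libraries 0, 1 and 0. Its neighbours Zim1 and Zim3 had 0 reads in all libraries. Usp29 was given a total of 1 read over them, the lowest count that its values allow. Meg3, a maternal noncoding RNA, had 0 to 3 reads per library and 0 in all dKO libraries, which is within counting error of the 1 read in each WT library. Of the genes sharing the Dlk1 and Meg3 cluster, Dio3 and Mirg had 0 reads. Rtl1, derived from a retrotransposon as is Peg10, was given a total of 1 read over the 14 libraries, again the lowest count possible. Peg3 and Meg3, the members whose promoter windows hold the full cyclic AMP response element, were both among those near 0 in every group. Peg10, Sgce and Impact had no window, so their promoters were not searched.

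**Figure D3:**
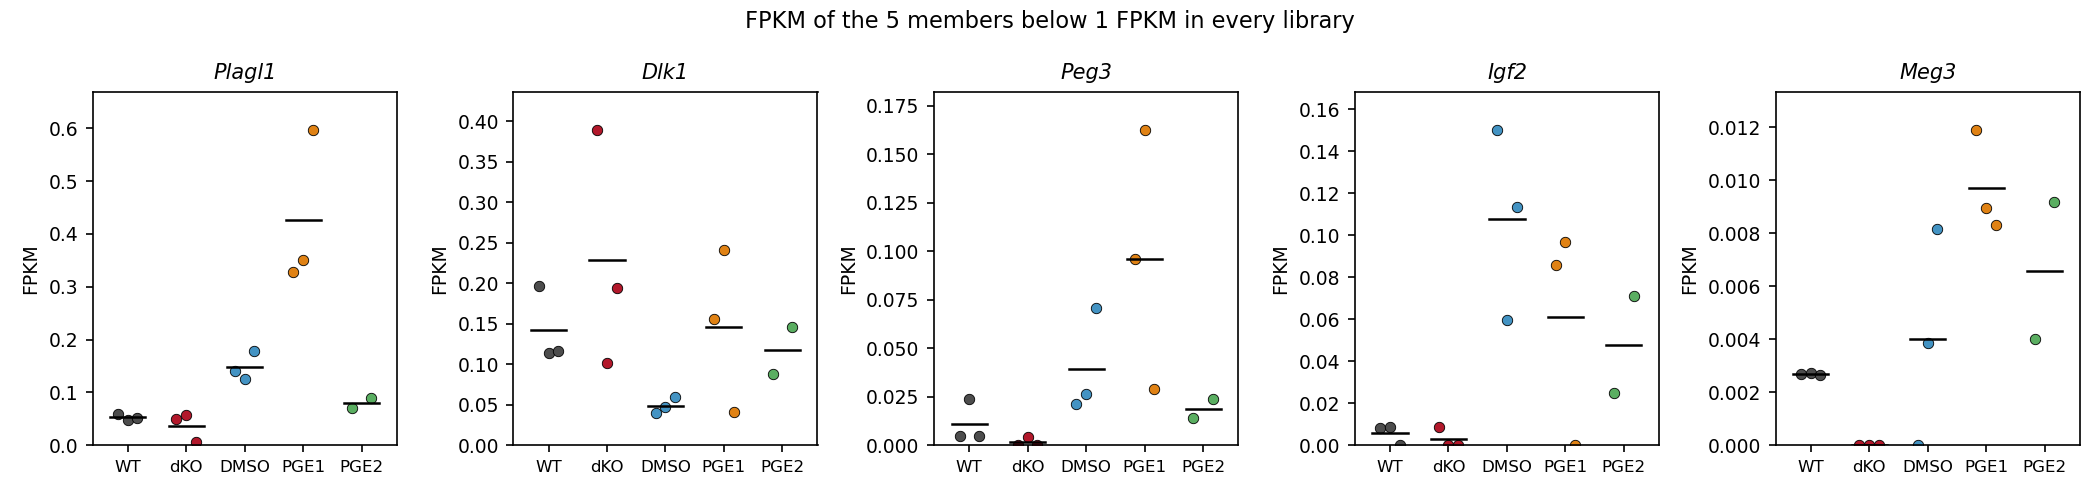
FPKM of Plagl1, Dlk1, Peg3, Igf2 and Meg3 in each library, on linear axes that differ between panels and end below 1 FPKM; points are libraries and lines group means. Plagl1 is highest in the 3 PGE1 libraries, Igf2 is at or near 0 in WT and dKO libraries, and Dlk1 is low with DMSO.

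A wider list of 73 imprinted genes, 72 of them measured, put the members in context. Of these, 35 were below 1 FPKM in every library and 8 had no reads at all. Together with the members other than Peg10, 38 imprinted genes were tested for PGE1 against DMSO, and 12 rose and 8 fell, 52.6% against 49.1% of all genes. Their median log2 difference was 0.08, against 0.01 for all genes tested. For PGE2 against DMSO 1 rose (Dhcr7, an enzyme of cholesterol synthesis, from 14.6 to 18.5 FPKM) and 1 fell (Grb10), 5.26% against 5.57%, and without either PGE2 library the count was 0. For PGE1 against PGE2 12 were higher and 9 lower (55.3% against 53.9%). In DMSO against WT 11 of 35 were higher and 8 lower (54.3% against 56.6%), and in dKO against WT 7 of 34 were higher and 9 lower (47.1% against 40.9%). In each comparison the share called was near that of all genes, and the direction was mixed.

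The wider genes with the smallest p for PGE1 against DMSO all rose. Tnfrsf23, a decoy receptor for TRAIL, went from 4.68 ± 0.379 to 11.0 ± 0.719 FPKM (SD, n = 3 each; log2 difference 1.08 ± 0.08, SE; adjusted p = 1.63e-05, limma). Blcap went from 18.2 to 30.2 FPKM, and Zrsr1, related to a splicing factor, from 2.57 to 6.66. Zrsr1 has a close paralog, so its reads are uncertain. None of these passed for PGE2, which had 3.85 FPKM of Tnfrsf23, 14.1 of Blcap and 2.24 of Zrsr1. Each was higher with PGE1 than with PGE2 in limma, with a log2 difference of 1.31, 1.05 and 1.23. Tnfrsf23 also stood at 0.812 FPKM in WT, below DMSO, so it rose from WT to DMSO as well as from DMSO to PGE1.

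Other genes were named after their values were seen. Gatm, which makes the creatine precursor guanidinoacetate, fell most in this list, from 25.2 ± 1.89 with DMSO to 5.32 ± 3.04 FPKM with PGE1 (SD, n = 3 each; log2 difference -2.15). It averaged 36.2 with PGE2 and 48.3 in WT. Cdkn1c, the imprinted inhibitor of cyclin-dependent kinases known for keeping blood stem cells quiescent, fell from 4.13 to 2.60 FPKM with PGE1 (log2 difference -0.51) and from 1.91 in WT to 0.287 in dKO libraries (log2 difference -1.19, adjusted p = 3.43e-04, limma). Nap1l5, a retrogene, averaged 0.138 FPKM with DMSO, 1.74 with PGE1 and 0.0901 with PGE2, below the minimum level for the test.

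Imprinted genes nested in the intron of a host gene allow a comparison within 1 locus. Nnat, a small membrane protein, lies within Blcap, and both rose with PGE1 (Nnat from 2.19 to 4.12 FPKM). Mcts2 lies within H13, and both fell (2.09 to 0.847 and 10.9 to 7.99 FPKM); Mcts2 has a close paralog. Peg13 lies within Trappc9, and Peg13 rose from 2.77 to 4.80 FPKM while Trappc9 had 6.97 and 6.11 and did not pass. Zrsr1 rose while its host Commd1 had 29.2 and 23.6 FPKM and did not pass. Reads of nested genes can be hard to assign without strand.

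**Figure D4:**
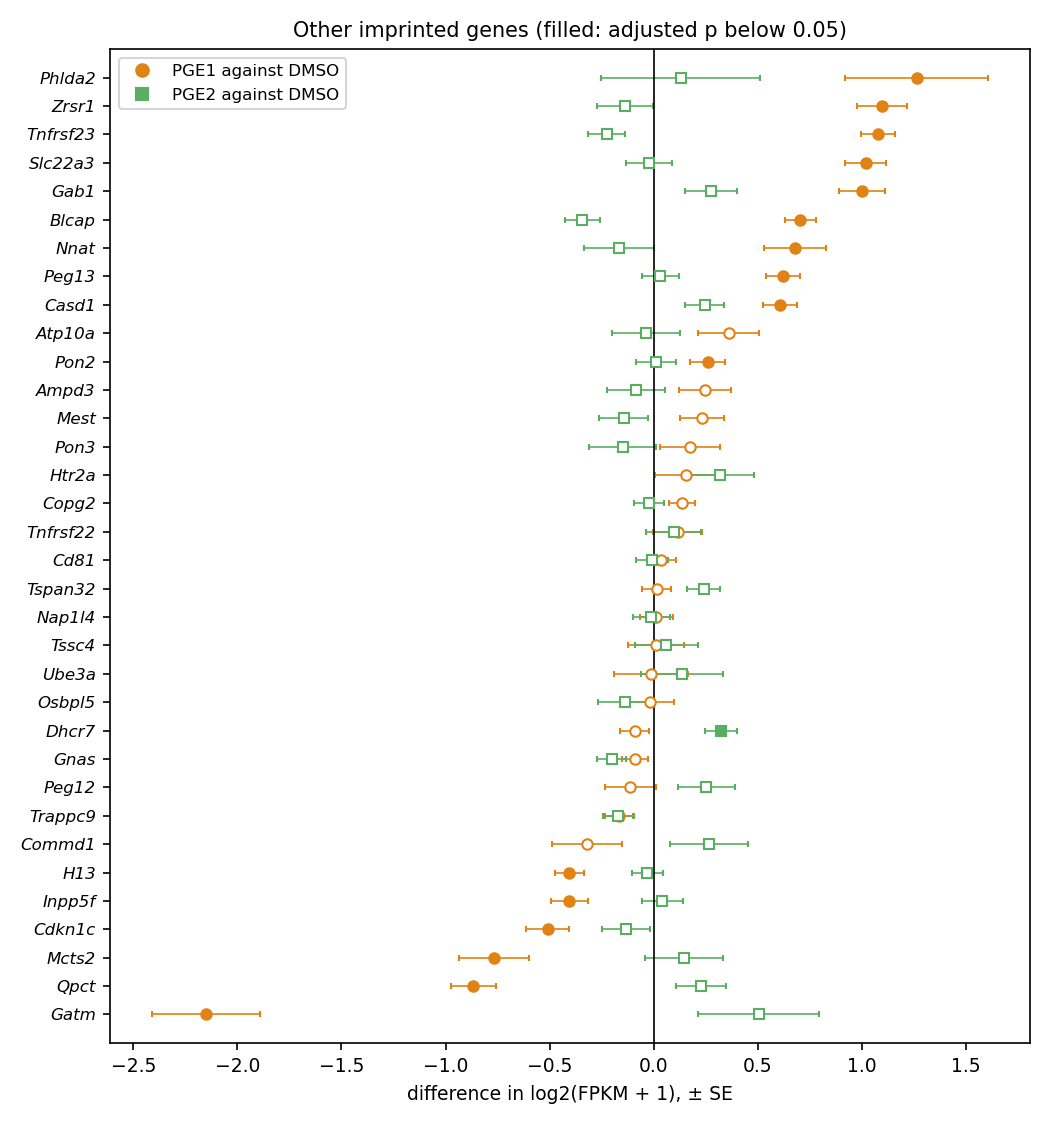
Differences in log2(FPKM + 1) from DMSO for the imprinted genes of the wider list that passed the minimum level, with standard errors from limma; circles are PGE1, squares PGE2, and filled symbols passed an adjusted p of 0.05. PGE1 circles range from Gatm at -2.15 to Phlda2 at 1.27, and Dhcr7 is the filled square.

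Genes that establish or maintain imprints were listed as 20, of which 17 were tested. With PGE1 against DMSO, 3 rose and 5 fell (47.1% called against 49.1% of all genes). Uhrf1, which brings the maintenance methyltransferase to replicating DNA, fell from 29.3 ± 0.980 to 15.8 ± 3.17 FPKM (SD, n = 3 each; log2 difference -0.87 ± 0.12, SE; adjusted p = 4.02e-04, limma). The methyltransferase gene Dnmt3b fell from 5.89 to 3.74 FPKM, while Arid4b rose from 5.61 to 9.85. With PGE2 against DMSO 0 of the 17 were called by limma, and 1 had an unadjusted p below 0.05. In dKO against WT 6 fell and 0 rose (35.3% called against 40.9% of all genes), among them Tet2, which oxidizes methylcytosine, from 6.10 to 2.52 FPKM (log2 difference -1.01, adjusted p = 7.8e-05, limma). Methylation was not measured.

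In the IGF pathway, on which Grb10, Igf2r and Igf2 act, 6 of 20 listed genes were tested for PGE1 against DMSO, and 1 rose and 2 fell (50.0% called against 49.1% of all genes). The receptor gene Igf1r rose from 8.22 to 14.03 FPKM (log2 difference 0.69, adjusted p = 0.00201, limma). Igfbp4, a secreted binding protein of IGFs, fell from 82.4 to 23.9 FPKM, and averaged 108 with PGE2. Igf2bp2, an RNA-binding protein that binds Igf2 transcripts, fell from 1.91 to 0.488 FPKM with PGE1 and to 0.997 with PGE2 (adjusted p = 6.4e-05 and 0.0203, limma).

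Peg10 belongs to a family of genes derived from retrotransposon gag sequences, of which 21 of 22 listed were measured. Only 5 passed the minimum level for PGE1 against DMSO, and 1 of them (20.0%, against 49.1% of all genes) was called, Ldoc1l, which fell from 1.44 to 0.988 FPKM (adjusted p = 0.0206, limma). In dKO against WT 1 of 3 (33.3%, against 40.9% of all genes) was called, Cxx1c, which fell from 2.86 to 1.72 FPKM. For PGE2 against DMSO and for DMSO against WT limma called 0 of 5, against 5.57% and 56.6% of all genes, and 0 had an unadjusted p below 0.05.

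The genes with the pattern most like Peg10 over the 14 libraries, by Pearson correlation of log2(FPKM + 1) among 11077 genes, were Per1 (r = 0.994), Ralgps1 (0.992), Dgat1 (0.991), Ramp3 (0.990) and Phospho1 (0.990). Ramp3, which modifies receptors for calcitonin-family peptides, averaged 2.16 FPKM with DMSO, 46.6 with PGE1 and 3.80 with PGE2. Dgat1, an enzyme of triglyceride synthesis, had 15.0, 149 and 27.9 FPKM in the same groups. Among members, Impact had r = 0.873 and Sgce 0.855, and they ranked 1023rd and 1237th, while Igf2r had 0.214 and Grb10 -0.736. These values describe 14 libraries in 5 groups that share their group means, and the 3 PGE1 libraries weigh heavily in them.

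Markers of other cell types moved with PGE1 as well. The 7 stem cell markers summed to 72.7 to 76.0 FPKM with DMSO, 132 to 153 with PGE1 and 58.8 to 59.3 with PGE2. Most of the DMSO sum came from Gata2 and Procr, which averaged 39.5 and 21.8 FPKM, and 2 of the 7 were below 1 FPKM in every library. The 6 megakaryocyte markers summed to 233 to 283, 289 to 400 and 290 to 298 FPKM, and the 6 erythroid markers to 22.0 to 25.2, 11.0 to 19.2 and 12.5 to 15.3. Of the 4 erythroid markers tested for PGE1 against DMSO, 2 rose and 2 fell. Most of the erythroid sum with DMSO came from Hbb-b1 and Hba-a1, which averaged 15.9 and 4.39 FPKM. The 8 neutrophil markers summed to 1560 to 1846, 1029 to 1595 and 2112 to 2129 FPKM, and 5 of them fell with PGE1 against DMSO. Of 7 monocyte and macrophage markers 2 rose and 3 fell, and they summed to 795 to 935, 830 to 1061 and 1048 to 1055 FPKM. For PGE1 against DMSO, 49.1% of all genes were called (23.6% higher and 25.5% lower). The summed levels of stromal and endothelial markers were low throughout but higher with PGE1. Only 1 gene of each list was tested, Pdgfrb and Tek, and both were called higher with PGE1 against DMSO (log2 difference 0.54 and 0.95). The other genes of these 2 lists were below the minimum level for the test. The 9 stromal markers summed to 1.56 to 1.86 FPKM with DMSO, 2.56 to 2.86 with PGE1 and 1.43 to 1.45 with PGE2, and the 4 endothelial markers to 1.23 to 1.71, 2.55 to 3.15 and 1.08 to 1.25. No marker of these lists was at 0 in every library, and their part in the levels of the members was not tested.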

How the data were processed

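RNA from 14 libraries was analysed. The authors deposited FPKM for 24463 genes, 1 file per library, made with CASAVA 1.8, TopHat and Cufflinks on mm9, per the submitters' processing notes. Annotation and strand: not given in the sources used here. Reads and library totals were recovered by taking each gene's FPKM as whole multiples of the largest unit that fits. That fit held for 100% of genes with reads, within 0.0001 of a read, but is largely built in. The gene lengths it gave were whole numbers for 99.99% of the 12568 genes with at least 200 reads. A gene with reads in only 1 library is given 1 read, the lowest count possible. Groups followed sample titles.

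Two-sided tests used limma 3.58.1 in R 4.3.3 (eBayes with trend) on log2(FPKM + 1), a scale that understates changes of low genes, for genes averaging 1 FPKM or more over a fit's libraries, with Benjamini-Hochberg adjustment over all genes and a threshold of 0.05. The fits were WT with dKO, WT with DMSO, and DMSO with PGE1 and PGE2. Folds are ratios of mean FPKM. Members below the minimum were compared on FPKM by exact permutation, two-sided. The fits were tested on simulated data. Other steps used Python 3.11.15 (scipy 1.17.1, pandas 2.3.3, numpy 2.4.6; figures with matplotlib 3.10.9).

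All members are named, with up to 4 genes of smallest p per list and comparison, the members' cluster genes and the 5 genes most like Peg10. The members and lists were chosen with earlier results of these data known. Alternatives were another pseudocount, minimum level or scaling, the replicate block and each library left out. Intervals and read floors cover counting error or the spread of the fit only.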

Additional observations from a re-analysis of the deposited data

How the results depend on the processing

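For the members other than Peg10, 243 of the values under alternatives were counted as the same, 4 gained a call and 3 lost 1. For tested members, the same means the same side of the threshold. None that was called in the main or the alternative fit turned direction, and a turn in values called in neither was not counted. The near-0 members were not in the main fit. Their values in this count come from the fit with no minimum level, which gives the same difference of group means by construction. They could not move, so they say nothing about how these members depend on the processing. Peg10 was not counted. Beside those given with the genes, Sgce passed for DMSO against WT under the replicate block (adjusted p = 0.0323, limma) and Grb10 for PGE1 against PGE2 under quantile normalization (0.0413). With a pseudocount of 0.1 the Peg10 differences were 4.61 (PGE1 against DMSO), 1.30 (PGE2 against DMSO), 3.31 (PGE1 against PGE2) and 1.05 (DMSO against WT). With a minimum mean of 5 FPKM fewer genes were tested, and the imprinted genes called fell to 9 (dKO against WT), 9 (PGE1 against DMSO), 11 (PGE1 against PGE2) and 10 (DMSO against WT). For PGE2 against DMSO, no minimum gave 4 imprinted calls in place of 2. Same-numbered libraries did not deviate together in every pair (correlations of 0.035, 0.116 and 0.009 for dKO and WT, and -0.159, -0.268 and 0.262 for PGE1 and DMSO). With so few libraries per group, these correlations cannot show whether the numbers pair the samples, and the main fits used no pairing. The replicate block gave 269 calls of all genes and 1 imprinted call for PGE2 against DMSO, against 626 and 2 without it, and 3972, 5191, 5313 and 6175 calls of all genes in the dKO, PGE1, PGE1 against PGE2 and DMSO against WT comparisons. Leaving out 1 library at a time gave these ranges of calls, all genes then imprinted genes: dKO against WT 3053 to 5277 and 12 to 19, PGE1 against DMSO 4534 to 6126 and 18 to 22, PGE2 against DMSO 125 to 520 and 0 to 3, PGE1 against PGE2 4253 to 6653 and 14 to 23, and DMSO against WT 5315 to 7183 and 16 to 22. The lowest PGE2 count came without PGE2 replicate 2, and the cause was not tested. With 1 PGE2 library left, it is assumed to vary like the other groups. Leaving out DMSO replicate 1 and PGE1 replicate 2 together, chosen after seeing the data, gave 22 imprinted calls in place of 20. The near-0 members rest on few reads, and differences among them are limited by depth.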
